A study of Mus musculus with 6 samples.

Results

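Caveolins and the proteins that build caveolae were examined in the RNAseq data of J110 and SSM3 cells. The genes were chosen by symbol and are 7 of the 52636 genes counted. They are the caveolins Cav1 and Cav2, the cavins Cavin1, Cavin2 and Cavin3, and the membrane-shaping proteins Ehd2 and Pacsin2. All 7 passed the filter on low counts and were tested among 12284 genes. The libraries are 3 biological replicates of each cell line, sequenced from the 3′ ends of polyadenylated transcripts. J110 is a mammary tumour line whose mice of origin carried an AIB1 transgene driven by the MMTV LTR, a promoter active in mammary epithelium. The strain of those mice is not given in the sources used here. SSM3 is a line from mammary tumours of genetically altered 129SvEv mice. No drug was given. Both media were based on DMEM/F12 with serum, insulin and hydrocortisone, but SSM3 cells had more serum, added transferrin and β-mercaptoethanol, and more CO2. Line and culture therefore cannot be told apart, and each line is a single model.

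Caveolae are small flask-shaped pits of the plasma membrane, most abundant in endothelial cells, adipocytes, muscle and fibroblasts. Caveolins are inserted into the membrane and form the pit, cavins coat it from the cytoplasm, EHD2 holds its neck at the surface and PACSIN2 helps to bend it. In the mammary gland, caveolin-1 is well known in myoepithelial and stromal cells, and Cav1 has been much studied as a growth-restraining gene in mammary tumour models.

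Total counts ran from 5209740 to 5416305 in J110 and from 4200785 to 4792941 in SSM3, and all values below are CPM, the share of a gene in the counts of its library, scaled by edgeR's TMM method. Where no library of a line exceeded 3 counts, the gene was taken to be at the floor there, a level of 0.578 to 0.668 CPM. A ribosomal RNA locus held 15.1% to 17.2% of counts in J110 and 0.779% to 1.27% in SSM3. Traces of genes found at high level only in the opposite line stood out in J110 replicate 3, where they reached 0.256% of the level in the other line, and in SSM3 replicate 2, with 0.414%, against 0.0373% to 0.121% in the other libraries. Ncoa3, which encodes AIB1, was counted at 21.2 ± 0.166 CPM (SD, n = 3) across J110 against 39.9 ± 2.65 CPM (SD, n = 3) across SSM3, and shares exons with the more highly counted Sulf2. The direction goes against a simple reading of the AIB1 label of J110, but 3′ tags cannot check it here, because the 3′ end of the transgene is not given in the sources used here. Of 7 luminal epithelial markers, 6 were higher in SSM3, among them Epcam and Pgr, and Krt18 was lower, where 38.6% of all genes tested were higher.

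Of the 7 genes, 5 were lower in SSM3, 1 was higher and 1 did not pass the threshold of 0.05 on the adjusted p. Among all genes tested, 39.2% were lower, 38.6% were higher and 77.9% passed in either direction, so passing the threshold was common in this comparison. With scaling by library size only, 4140 genes were lower and 5373 higher. In bulk libraries, fewer cells with a gene and less RNA per cell cannot be told apart. The genes did not move as 1 block. Cavin1 was 115-fold lower in SSM3 and Cavin2 fell to the floor, Cav1 was 8.47-fold lower, Ehd2 3.99-fold and Pacsin2 2.40-fold. Cav2 was at nearly the same level in both lines, and Cavin3 was 3.40-fold higher in SSM3. The median log2 fold change of the 7 genes was -2.0, beside -0.014 over all genes tested. Libraries of the 2 lines did not overlap for 6 of the 7 genes, beside 79.6% of all genes tested. Without J110 replicate 3 and SSM3 replicate 2 together, 5 were again lower and 1 higher, beside 4465 lower and 4416 higher of 12395 genes tested.

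**Figure D1:**
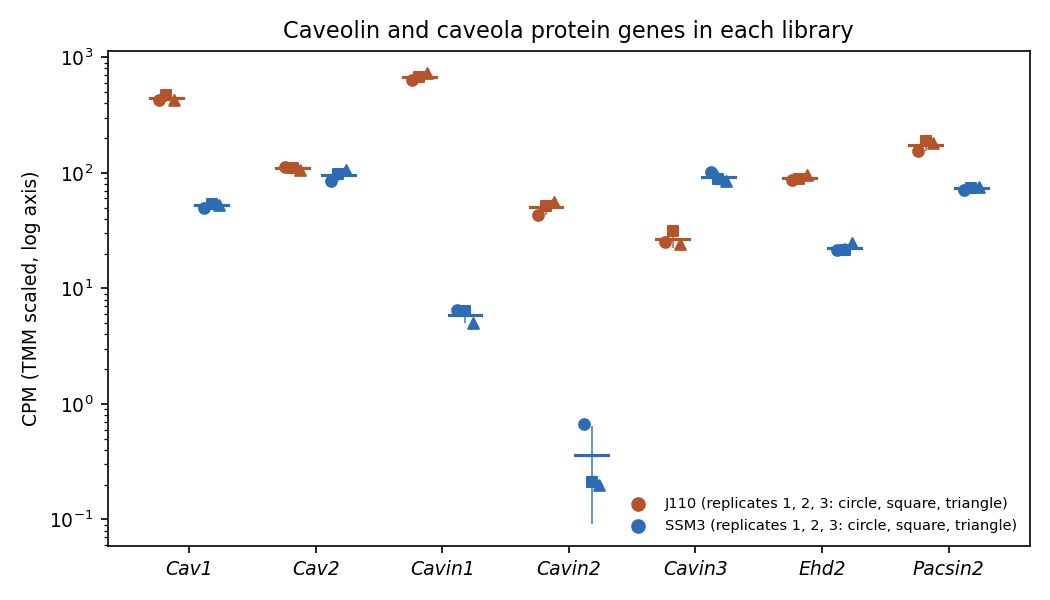
CPM on a log axis (vertical) for each of the 7 genes (horizontal) in each library, J110 in brown and SSM3 in blue, with the mean as a line and the SD as a bar (n = 3). The J110 libraries sit above the SSM3 libraries for Cav1, Cavin1, Cavin2, Ehd2 and Pacsin2, they overlap for Cav2 at 106 to 113 CPM against 85.5 to 106 CPM, and for Cavin3 the order is turned; levels are to be compared within a gene.

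Cav1 (ENSMUSG00000007655, chromosome 6 of mm10 from 17306335 to 17341452, forward strand) encodes caveolin-1, the main structural protein of caveolae outside striated muscle. J110 replicates 1, 2 and 3 held 2228, 2375 and 2060 tags and SSM3 held 224, 255 and 265. Every SSM3 library was far below every J110 library. The means were 443 ± 23.1 CPM (SD, n = 3) across J110 against 52.3 ± 2.18 CPM (SD, n = 3) across SSM3. The log2 fold change, SSM3 against J110, was -3.08 (SE 0.081, edgeR adjusted p = 4.84e-15). Cav1 was still well above the floor in SSM3, with 744 counts over the 3 libraries.

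Cav2 (ENSMUSG00000000058, chromosome 6 from 17281185 to 17289115, forward strand) encodes caveolin-2, which pairs with caveolin-1 and needs it to reach the cell surface. It lies 17.2 kb before Cav1 on the same strand. Its counts were 586, 561 and 508 in J110 and 384, 460 and 534 in SSM3. The means were 110 ± 3.59 CPM (SD, n = 3) across J110 against 96.5 ± 10.4 CPM (SD, n = 3) across SSM3, and SSM3 replicate 3 lay within the range of J110. The log2 fold change was -0.19 (SE 0.091, 95% interval -0.38 to 0.005, edgeR adjusted p = 0.0703). Without SSM3 replicate 3 it was -0.26 and its adjusted p 0.0179. Over the alternatives that test against no change, the adjusted p ran from 0.0179 to 0.899, the latter with library size only. The interval leaves out a fall of the size seen for Cav1.

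The ratio of Cav2 to Cav1 within a library therefore differed between the lines. On the log2 scale it was -1.92, -2.08 and -2.02 in J110 and 0.77, 0.85 and 1.01 in SSM3. The difference was 2.88, with no overlap between the libraries (p = 0.1 from a two-sided exact permutation test, and no lower p is possible with 3 libraries a line). Expressed as a share of the 3′ tags on both caveolins, Cav2 supplied 19.1% to 20.8% in J110 and 63.2% to 66.8% in SSM3. These shares also depend on how well each 3′ end is captured, so only their change between lines is compared.

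Because the caveolin neighbours changed by unequal amounts, the stretch of genome before each start site is shown, together with that of Cavin2, the gene at the floor in SSM3. Each sequence holds the 250 bases before the RefSeq start site (build GRCm38.p6), read 5′ to 3′ on the strand of the gene, and lies in no annotated exon. Capitals mark GGGCGG or its reverse complement CCGCCC, the core of the GC box that Sp1 family factors bind.
Cav1, chr6:17306085-17306334, forward strand: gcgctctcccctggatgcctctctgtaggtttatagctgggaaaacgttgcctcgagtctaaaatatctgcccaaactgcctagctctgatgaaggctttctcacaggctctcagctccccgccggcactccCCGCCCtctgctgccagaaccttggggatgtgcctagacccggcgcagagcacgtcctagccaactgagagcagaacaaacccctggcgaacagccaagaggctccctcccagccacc
Cav2, chr6:17280935-17281184, forward strand: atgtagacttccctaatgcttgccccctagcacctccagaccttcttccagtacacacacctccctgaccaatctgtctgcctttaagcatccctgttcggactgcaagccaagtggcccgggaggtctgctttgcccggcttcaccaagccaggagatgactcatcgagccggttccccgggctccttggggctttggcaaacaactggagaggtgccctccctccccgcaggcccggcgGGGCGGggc
Cavin2, chr1:51288876-51289125, forward strand: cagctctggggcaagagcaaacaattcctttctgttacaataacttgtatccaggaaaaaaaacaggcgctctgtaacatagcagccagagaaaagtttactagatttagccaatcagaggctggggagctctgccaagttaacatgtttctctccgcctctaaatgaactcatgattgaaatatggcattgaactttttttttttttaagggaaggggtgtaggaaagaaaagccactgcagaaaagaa

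Over windows of 300 bases that run on to 50 bases past the start, GGGCGG was searched on both strands, with overlapping matches counted. The Cav1 and Cav2 windows held 2 matches each, of which 1 each is in the sequence shown, and the Cavin2 window held 0. At least 1 match was present in 35.7% of the 32851 promoter windows of this length in the table. The ratio of observed to expected CpG was 0.535 for Cav1, 0.518 for Cav2 and 0.290 for Cavin2, where the median of all windows was 0.384. Cavin2 also had the lowest GC content of the members with a window, 43.3%, beside 59.3% for Cav1 and 64.3% for Cav2. The Cavin1, Ehd2 and Pacsin2 windows held 1, 2 and 2 matches and had ratios of 0.523, 0.626 and 0.864. Cav1, Cavin1 and Pacsin2 had 2, 2 and 3 windows, and the one whose start lay nearest to the annotated gene start was used. The start used for Cavin1 lies 270 bases from the annotated one, so its window lies inside the gene. TATAAA, searched in the same way, was found once in the Cav1 window and in none of the windows used for the other members, beside 13.6% of all windows. Neither motif can overlap the other. A match is a description of the sequence only.

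Among the cavins, Cavin1 and Cavin2 fell in SSM3 while Cavin3 rose. Cavin1 (ENSMUSG00000004044, chromosome 11 from 100956733 to 100970887, reverse strand) encodes the cavin that caveola formation depends on, also known as PTRF. J110 held 3323, 3403 and 3485 tags and SSM3 held 29, 30 and 25. All 3 SSM3 libraries were low and close to each other. The means were 680.3 ± 43.8 CPM (SD, n = 3) across J110 against 5.93 ± 0.832 CPM (SD, n = 3) across SSM3, which gave a log2 fold change of -6.84 (SE 0.114, edgeR adjusted p = 6.90e-17). Only 3.46% of genes tested had a lower log2 fold change.

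The low SSM3 counts of Cavin1 were set beside the low counts that SSM3 libraries carry on 47 genes found at 100 CPM or more in J110 and at a median of at most 3 counts in SSM3. Cavin1 stood at 0.949%, 0.936% and 0.731% of its J110 mean in SSM3 replicates 1, 2 and 3, and those 47 genes together at 0.121%, 0.414% and 0.0849%. Those genes were chosen for their low SSM3 counts, so their lower share follows from the choice and is no test of the source of the Cavin1 tags. When single libraries were left out, the log2 fold change of Cavin1 ran from -6.90 to -6.72.

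Cavin2 (ENSMUSG00000045954, chromosome 1 from 51289126 to 51302960, forward strand) encodes the cavin also known as SDPR, which binds phosphatidylserine and bends membranes. Its counts were 224, 262 and 269 in J110 and 3, 1 and 1 in SSM3. SSM3 was therefore at the floor. With a mean of 50.4 ± 6.59 CPM (SD, n = 3) in J110, Cavin2 was at least 75.4-fold lower in SSM3 (edgeR adjusted p = 9.97e-13), taking the floor as 3 counts per library. The 5 tags in SSM3 do not allow its level there to be told from low counts of the kind described above.

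Cavin3 (ENSMUSG00000037060, chromosome 7 from 105480083 to 105482300, reverse strand) encodes the cavin also known as SRBC or PRKCDBP, a binding partner of protein kinase C delta. It was the only one of the 7 genes that was called higher in SSM3. Its counts were 131, 160 and 115 in J110 and 460, 420 and 423 in SSM3, again with no overlap. The means were 27.0 ± 4.10 CPM (SD, n = 3) against 91.9 ± 9.44 CPM (SD, n = 3), which gave a log2 fold change of 1.77 (SE 0.116, edgeR adjusted p = 5.91e-10). The transcript Gm45667 shares exons with Cavin3 on the opposite strand, and had 2 counts in all, 1 each in SSM3 replicates 2 and 3.

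The make-up of the cavin tags was therefore turned over between the lines. Cavin1 gave 89.0% to 90.3% of the 3′ tags on the 3 cavins in J110 and 5.57% to 6.65% in SSM3. Cavin3 gave 2.97% to 4.18% in J110 and 93.1% to 94.2% in SSM3. The log2 ratio of Cavin3 to Cavin1 was -4.64, -4.39 and -4.90 in the J110 libraries and 3.90, 3.72 and 3.97 in the SSM3 libraries, a difference of 8.51. Cavin1 also fell by more than Cav1, with a log2 ratio of Cavin1 to Cav1 of 0.62 ± 0.125 (SD, n = 3) across J110 against -3.06 ± 0.220 (SD, n = 3) across SSM3. In each of the 5 ratios tested the libraries of the lines lay apart, and each exact permutation p was 0.1, also after adjustment over the 5.

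**Figure D2:**
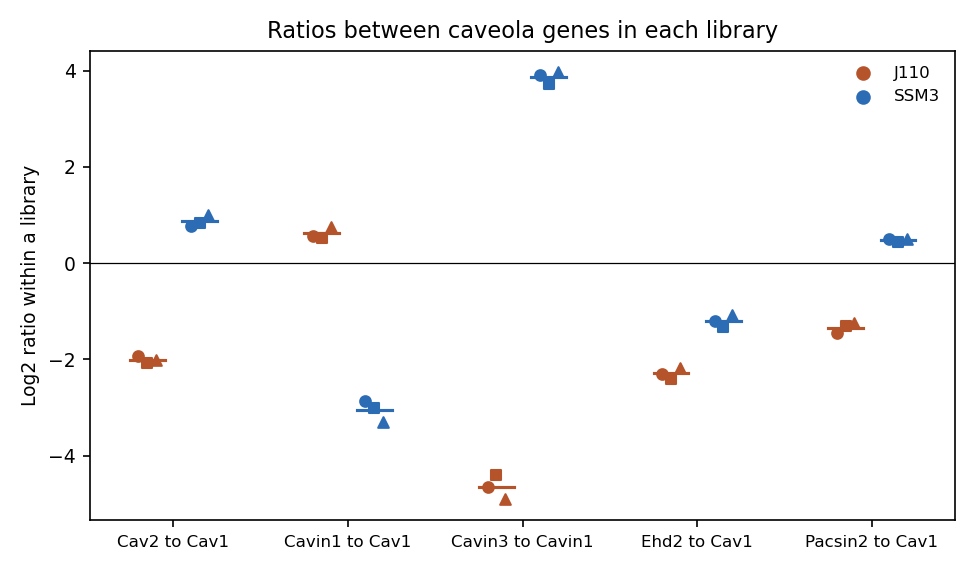
Log2 ratio of CPM between 2 genes within a library (vertical) for 5 pairs (horizontal), J110 in brown and SSM3 in blue, with the mean as a line (n = 3; replicates 1, 2 and 3 as circle, square and triangle). The Cav2 to Cav1 and Pacsin2 to Cav1 ratios lie below 0 in J110 and above 0 in SSM3, and the Cavin3 to Cavin1 ratio moves from a mean of -4.64 to 3.87.

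The genes of the neck proteins Ehd2 and Pacsin2 had smaller log2 fold changes than Cav1. Ehd2 (ENSMUSG00000074364, chromosome 7 from 15946958 to 15967567, reverse strand) encodes an ATPase that forms a ring around the neck and keeps caveolae at the surface. J110 held 452, 446 and 455 tags and SSM3 held 96, 101 and 124. The means were 90.1 ± 4.23 CPM (SD, n = 3) against 22.5 ± 1.88 CPM (SD, n = 3), which gave a log2 fold change of -2.0 (SE 0.101, edgeR adjusted p = 1.90e-11). The log2 ratio of Ehd2 to Cav1 was higher in SSM3 by 1.09.

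Pacsin2 (ENSMUSG00000016664, chromosome 15 from 83375607 to 83464606, reverse strand) encodes an F-BAR protein, also called syndapin-2, that senses and shapes curved membranes in endocytosis and at caveolae. J110 held 808, 955 and 869 tags and SSM3 held 317, 346 and 379, with every SSM3 library below every J110 library. The means were 175 ± 17.4 CPM (SD, n = 3) against 73.2 ± 2.43 CPM (SD, n = 3), which gave a log2 fold change of -1.26 (SE 0.090, edgeR adjusted p = 1.81e-09). This was the smallest of the 5 falls.

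**Figure D3:**
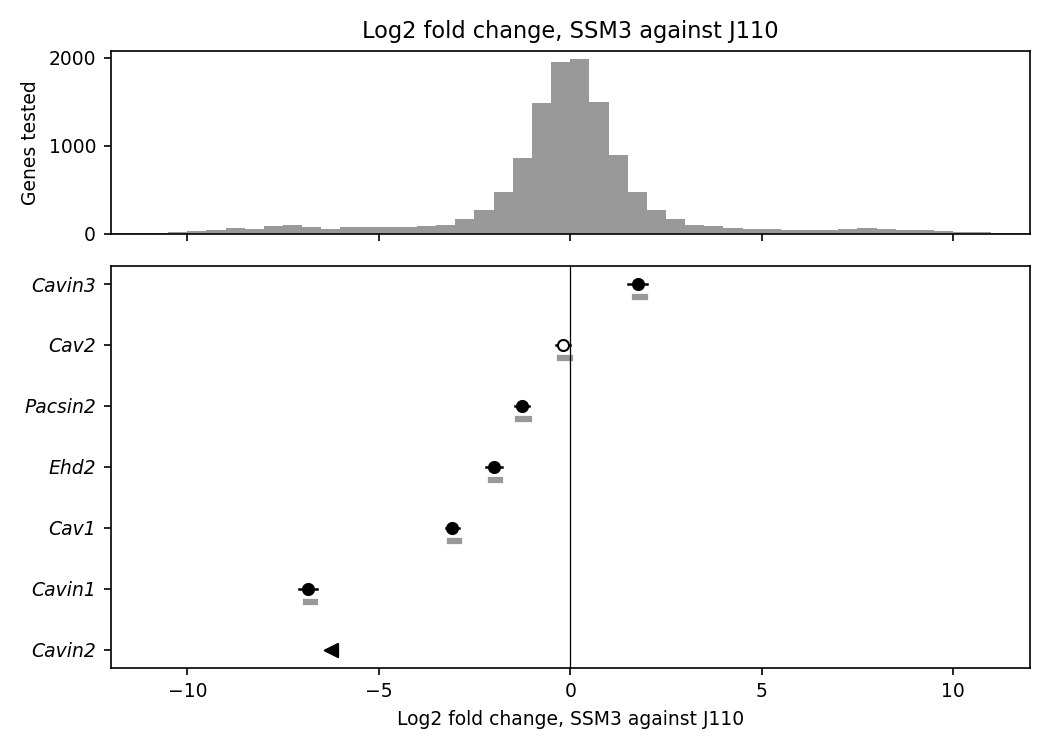
Log2 fold change, SSM3 against J110 (horizontal), as a histogram of all 12284 genes tested (top) and for the 7 genes (bottom). Filled circles passed the threshold and the open circle, Cav2, did not; black bars are 95% intervals, grey bars the range over the alternatives to the processing, and the triangle is the bound of -6.24 for Cavin2, whose fall is at least that large.

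Genes around the core proteins were taken from a list of 13 caveola paralogues and accessory proteins. Of these, 9 were tested, 6 were lower in SSM3 and 3 higher, beside 39.2% and 38.6% of all genes tested, with a median log2 fold change of -0.61. Against a 2-fold change, with glmTreat, 3 were lower and 2 higher, beside 2178 lower and 2094 higher of all 12284 genes tested. The muscle caveolin Cav3 and the brain-enriched Ehd3 had no count in any library. The muscle cavin Cavin4 had 4 counts in J110 and 12 in SSM3 in all, and Pacsin1, mainly neuronal, had 1 and 5 in all, and neither was tested.

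Relatives of Ehd2 and Pacsin2 moved in both directions. Ehd1, which encodes an ATPase of endocytic recycling, rose from 87.6 ± 5.52 CPM (SD, n = 3) in J110 to 292 ± 17.8 CPM (SD, n = 3) across SSM3, which gave a log2 fold change of 1.74 (edgeR adjusted p = 7.82e-12). Pacsin3 rose from 49.3 ± 4.82 CPM to 275 ± 19.4 CPM (SD, n = 3 each), with a log2 fold change of 2.48 (adjusted p = 3.96e-13). Ehd4, another member of the Ehd2 family, had a log2 fold change of -0.25 (adjusted p = 0.00916). Scaling by library size only took the Ehd4 value to -0.07 (adjusted p = 0.41), and without J110 replicate 3 and SSM3 replicate 2 it was -0.19 (adjusted p = 0.0756). The lowest adjusted p of Ehd4 was 0.00395, under upper quartile scaling. With glmTreat against a 2-fold change, Ehd4 did not pass.

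Among genes that anchor caveolae, cut them from the membrane or signal at them, Flna, Dnm2, Src, Fyn and Nos3 were lower in SSM3 and Abl1 was higher. Flna, whose product filamin A ties caveolae to actin, fell from 504 ± 17.3 CPM (SD, n = 3) to 188 ± 13.1 CPM (SD, n = 3), a log2 fold change of -1.42. Dnm2, the gene of the membrane-cutting GTPase dynamin-2, had a log2 fold change of -0.61, which is uncertain because Dnm2 shares 207 exon bases with Tmed1 on the opposite strand, counted 129, 123 and 117 times in J110 and 26, 26 and 33 times in SSM3. Src, a kinase that phosphorylates caveolin-1, had a log2 fold change of -0.85. Fyn, a kinase of the same family, had 35, 64 and 65 counts in J110 and 2, 0 and 0 in SSM3, at the floor, so it was at least 16.4-fold lower there. Abl1, another kinase linked to caveolin-1 phosphorylation, had a log2 fold change of 0.83. The adjusted p of these 5 genes lay between 2.73e-11 (Flna) and 1.25e-05 (Dnm2) in edgeR's test. Nos3, the endothelial nitric oxide synthase that caveolin-1 binds and restrains, had a log2 fold change of -1.71 (adjusted p = 1.10e-06), but it shares exons with Atg9b on the opposite strand, which had more counts in every library, so its value is uncertain.

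A pair of other routes of uptake were read beside caveolae, and both lists held log2 fold changes of either sign. The flotillins build membrane domains without caveolin. Flot2 rose in SSM3 by 0.78 on the log2 scale (edgeR adjusted p = 1.56e-05), and Flot1 had -0.29 (adjusted p = 0.0531). Flot1 passed the threshold under 6 alternatives, with an adjusted p as low as 0.0111 without SSM3 replicate 3. With library size only its adjusted p was 0.426. Of 16 genes of clathrin-mediated endocytosis, all were tested, 5 were lower, 6 higher and 5 did not pass, with a median log2 fold change of -0.08. This is near the shares of all genes tested.

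The 3 clathrin genes with the highest mean levels differed by less than 1 on the log2 scale. The heavy chain Cltc had a log2 fold change of -0.18 (edgeR adjusted p = 0.0222), which missed the threshold under 7 alternatives, among them without J110 replicate 1 (0.0765), without J110 replicate 2 (0.054), without SSM3 replicate 1 (0.0624) and without SSM3 replicate 3 (0.0553). The light chain Clta had 0.31 and the assembly protein Picalm -0.64. Cltb, the other light chain, rose by 1.80 on the log2 scale, and the epsins Epn2 and Epn1, adaptors that bend the membrane, by 1.62 and 1.17. Dab2, a cargo adaptor, and Fcho2, which starts the pit, had log2 fold changes of -1.88 and -1.43. All of these but Cltc had an adjusted p of at most 0.00116.

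**Figure D4:**
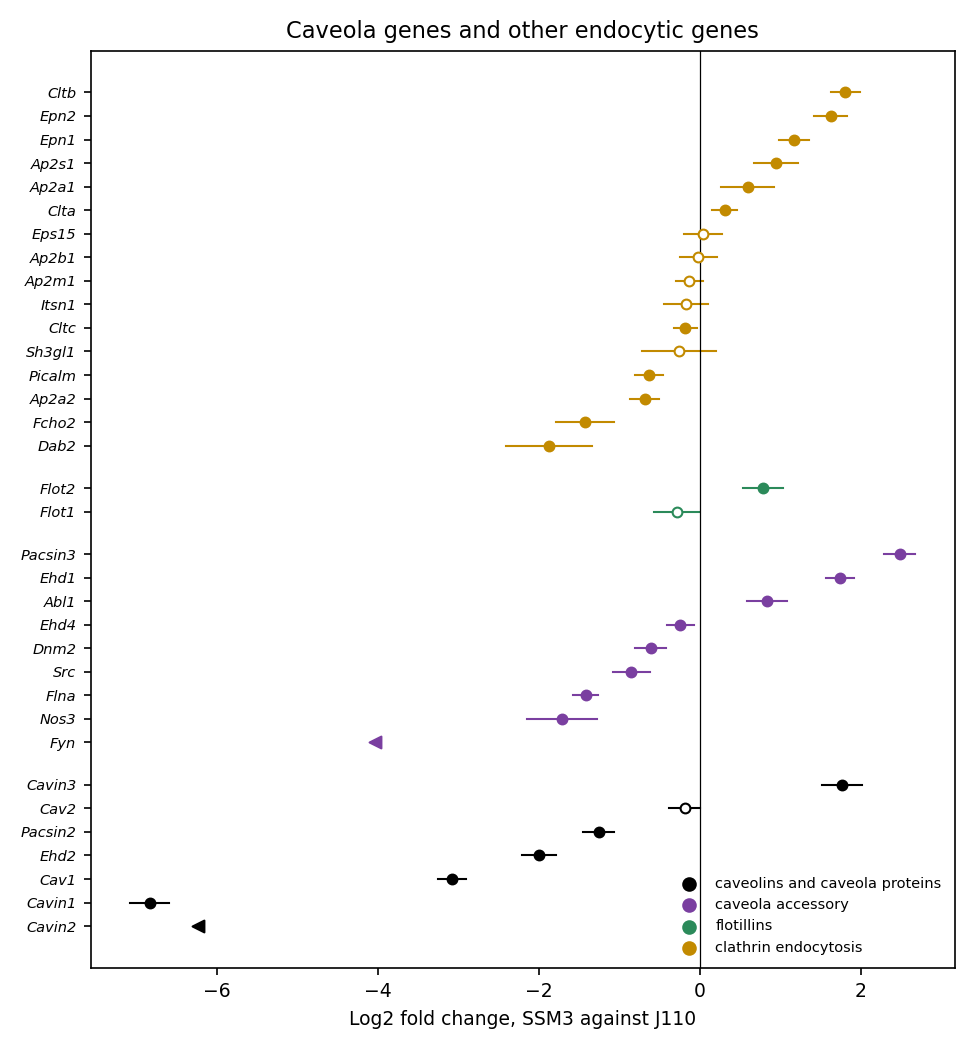
Log2 fold change, SSM3 against J110 (horizontal), with 95% intervals for the genes tested in the caveola, accessory, flotillin and clathrin lists (vertical). Filled circles passed the threshold, open circles did not, and triangles mark the bounds of Cavin2 and Fyn; Cavin1 and Cavin2 lie farthest to the left, and the clathrin genes spread to both sides of 0 between -1.88 and 1.80.

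The genes whose centred log2 CPM profile over the 6 libraries was closest to that of Cav1 were named by Euclidean distance, among 9062 other genes with a mean of at least 10 CPM. They were Camk2d, a calcium-dependent kinase gene, at 0.184, Tpm1, the gene of an actin-binding tropomyosin, at 0.184, Lamb1, the gene of a laminin chain, at 0.186, Elk3, the gene of an ETS factor, at 0.285, and Ugdh, which makes the precursor of hyaluronan, at 0.291. Their log2 fold changes lay between -3.30 and -3.02, close to that of Cav1. Elk3 shares exons with Cdk17 on the opposite strand, which had fewer counts than Elk3 in J110 but as many or more in SSM3, so the Elk3 value is uncertain. The other caveola genes were not among the closest, with Ehd2 at rank 296, Pacsin2 at 904, Cav2 at 3589, Cavin2 at 4271, Cavin1 at 6326 and Cavin3 at 8240. With 2 lines, such a distance mostly measures the size of the difference between them.

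Markers of cells rich in caveolae, and of the labelled mammary cancer cells, were counted in the same libraries. The 8 endothelial markers summed to 159 to 182 CPM in J110 and 3.18 to 4.90 CPM in SSM3. Nearly all of the J110 sum was Cdh5, at 165 ± 11.8 CPM (SD, n = 3), while Tie1, Emcn and Cldn5 had no count in any library and Pecam1 had 7 and Kdr 25 counts in J110. Vwf went the other way, with 6 counts in J110 and 54 in SSM3 in all and a log2 fold change of 3.17 (edgeR adjusted p = 1.71e-05), and made up most of the SSM3 sum. The 6 adipocyte markers summed to 43.6 to 58.6 CPM in J110 and 0 to 1.06 CPM in SSM3, of which Pparg was 45.0 ± 7.54 CPM (SD, n = 3) in J110, and Adipoq, Plin1 and Lep had no count. Fabp4 had 94 counts in J110 and 3 in SSM3 in all, at the floor in SSM3, so it was at least 9.36-fold lower there (edgeR adjusted p = 7.11e-07). The 5 smooth muscle and pericyte markers summed to at most 1.16 CPM in J110 and 2.39 CPM in SSM3, and 5 and 4 of them were at the floor.

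The 7 fibroblast markers summed to 1.54 to 4.38 CPM in J110 and 1336 to 1480 CPM in SSM3, nearly all of it Dcn, while Col1a2, Lum and Pdgfrb had no count in any library. The 5 basal or myoepithelial markers summed to 1.04 to 2.18 CPM in J110 and 4.46 to 10.9 CPM in SSM3. The 5 leukocyte markers summed to 14.8 to 22.2 CPM and 1.19 to 2.0 CPM, almost all Cd68, with Ptprc at 0 counts in J110. Of the 7 luminal epithelial markers, all were found in SSM3. Krt8 rose from 1275 ± 37.9 CPM in J110 to 2270 ± 201.8 CPM in SSM3 (SD, n = 3 each), with a log2 fold change of 0.83 (edgeR adjusted p = 3.12e-08). Krt18 ran the other way, from 1430 ± 18.1 to 970.0 ± 37.3 CPM (SD, n = 3 each), with a log2 fold change of -0.56 (adjusted p = 6.61e-07). Pgr had 2 counts in J110, where it was at the floor, and 5216 in SSM3, and Epcam had 10 counts in J110 and 7192 in SSM3. Whether the endothelial, adipocyte and other marker genes that differ with the line play a part in the caveola results was not tested.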

How the data were processed

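RNA of 3 J110 and 3 SSM3 cultures was sequenced with the QuantSeq 3′ kit. Per the labels and methods, the authors trimmed the reads with cutadapt (2.1), mapped them to mm10 with HISAT2 (2.0.4) and counted them per gene with featureCounts of Subread (2.0.0). The authors deposited these raw counts for 52636 genes without normalising them. The strand setting is not given in the sources used here. Of the identifiers, 99.7% matched GENCODE M21 (GRCm38).

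After filterByExpr and TMM scaling, the whole table was tested with edgeR's quasi-likelihood test (4.0.16, in R 4.3.3 with limma 3.58.1) and Benjamini-Hochberg adjustment. Standard errors are the log2 fold change divided by the square root of F. Ratios used a prior count of 2. The members, lists and tests were chosen with earlier results of these data known. Named genes are the members, the accessory and flotillin lists, the 3 most abundant clathrin genes and those called with a log2 fold change of at least 1, the 5 genes nearest to Cav1, Ncoa3, and the markers described; 1 further gene of the rule is not reported here. Promoter sequences come from RefSeq (GRCm38.p6), where 6 of the 7 members matched and Cavin3 did not. The test was also run on simulated counts, and the outcome is not reported here. Alternatives covered DESeq2 (1.42.0), limma-voom, scalings, filters, thinning to the smallest library, a 2-fold threshold, a replicate block and left-out libraries. Replicates of a line differed by more than sampling noise (chi-square per degree of freedom from 2.21 to 5.62). No molecular identifiers are described, so the floor covers counting error only. The intervals of log2 fold changes come from the edgeR test and include the spread between libraries. The chromosome 6 neighbours of the caveolins given at the end were chosen after the results were seen.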

Additional observations from a re-analysis of the deposited data

How the results depend on the processing

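Over 18 alternatives, the 5 falls and the rise of Cavin3 kept their direction and call in every alternative run. Cavin2 could not be tested with at least 10 counts in every library. Cav2 passed the threshold under upper quartile scaling (-0.22, adjusted p = 0.0406), with at least 10 counts in every library (-0.20, adjusted p = 0.0488) and without SSM3 replicate 3. Library size only took the share of calls that were lower from 50.4% to 43.5%, moved the median of all genes from -0.014 to 0.16 and shifted every member by about as much, Cav2 to -0.01. With edgeR's glmTreat against a 2-fold change, 4272 genes passed, 2178 lower and 2094 higher in SSM3, with 3 accessory genes lower, 0 flotillins higher, and 2 clathrin genes lower and 3 higher. The count of flotillins lower in SSM3 was 0, and 1 under limma-voom, upper quartile scaling, at least 10 counts in every library, thinning and the replicate block, and from 0 to 1 when each library was left out. Clathrin genes that had not passed changed sign. Library size only gave 0.16 for Ap2b1, 0.04 for Ap2m1 and 0.002 for Itsn1, and at least 1 count in any library gave 0.002 for Ap2b1. Without J110 replicate 3 and SSM3 replicate 2, Ap2b1 was at 0.14 and Eps15 at -0.003. Leaving out each library in turn gave -0.13 to 0.10 for Ap2b1, -0.025 to 0.15 for Eps15 and -0.53 to 0.003 for Sh3gl1, where Sh3gl1 passed the threshold without SSM3 replicate 1 (-0.53, adjusted p = 0.0344).

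Replicate numbers share only a number, with correlations of the deviations of same-numbered libraries from 0.012 to 0.027, although every library correlated best with its own number. With the replicate block 9481 genes were called, beside 9566 without it, and among the members no call changed. At these depths a gene at or under 3 counts per library was not detectable above the floor.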

Other observations

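The genes next to the caveolins on chromosome 6 were read after the results were seen, as the 2 tested genes on either side of the pair. Tes, the gene of the focal adhesion protein testin, stood at 230 ± 27.5 CPM (SD, n = 3) across J110 against 110 ± 5.46 CPM (SD, n = 3) across SSM3, with a log2 fold change of -1.06 (edgeR adjusted p = 1.70e-08). Gm15473 had 11 counts in each J110 library and 2, 0 and 0 in SSM3. On the other side of Cav1, the receptor gene Met had a log2 fold change of 0.12 (95% interval -0.05 to 0.29, adjusted p = 0.186), and Capza2, the gene of an actin capping subunit, fell from 197 ± 7.48 CPM to 60.5 ± 4.81 CPM (SD, n = 3 each), with a log2 fold change of -1.70 (adjusted p = 1.90e-11). Along this stretch Cav2 and Met, which did not pass the threshold, alternate with genes that were lower in SSM3.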
